A study of Mus with 438 samples.

Results

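The cone opsin genes Opn1sw and Opn1mw and the gene Ccdc136, which lies beside Opn1sw, were followed cell by cell in single mouse cones and rods. They are 3 of the 10390 genes in the expression table and were taken by name. They were selected on measured values: all 3 stood out between superior and inferior control cones in an earlier pass over these same data that averaged log values over cells. Their levels by zone are therefore given as a description, without a test. Opn1sw (gene ID 12057) lies at chr6:29376671-29380513, Ccdc136 (ID 232664) at chr6:29396574-29426995 and Opn1mw (ID 14539) at chrX:74127466-74150756, on GRCm38. A gap of 16060 bases separates the intervals of Opn1sw and Ccdc136.

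Cone opsins are the receptors that absorb light in the cone outer segment and pass the signal to the cone transducin. Opn1sw encodes the short-wavelength opsin (S opsin) and Opn1mw the medium-wavelength opsin (M opsin). Many mouse cones hold both proteins, with M opsin prevailing in the superior and S opsin in the inferior retina, and M opsin appears later in development and depends on the thyroid hormone receptor encoded by Thrb. Ccdc136 encodes a coiled-coil protein, and its role in cones is not described in the sources used here.

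RNA was sequenced from fluorescent cells picked one at a time from C57BL/6 retina, after superior or inferior pieces had been dissected for cones. Cones of genotype Trb2Cre-KO:Ai6, in which the receptor driver allele is labelled a knockout, came from mice of 2 months (2m), with 50 superior and 48 inferior cells. Control cones, Trb2Cre-het:Ai6, were picked at postnatal day 2 (P2, with 26 superior cells and 30 inferior ones), P8 (24 and 24), P21 (24 and 24), P60 (26 and 21) and 2m (53 and 50), and 29 rods from tgNrl:gfp mice of 2m. Controls thus also carried a Trb2Cre allele, and Ai6 is a green reporter that Cre switches on, so cones were found by the driver under study. Receptor binding was mapped by ChAP-seq, a streptavidin pull-down of the biotin-tagged receptor with its DNA, in whole E18 retina (2 ThrbHAB:BirA against 2 BirA samples), and open chromatin by ATAC-seq in purified P30 cone nuclei (2 Trb2Cre-KO:Sun1-gfp against 2 Trb2Cre-het:Sun1-gfp samples). These gave 3 region lists without values per sample.

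Reads per cell ran from 897893 to 32636811 over 429 cells, and the 2m collections were the deeper ones. The labels name no animal, so each age, zone and genotype counts as 1 value, and the spread over cells is not an error between animals. The 7 cone markers checked (Arr3, Gnat2, Gngt2, Pde6h, Pde6c, Cnga3 and Gnb3) summed to 14368 CPM or more in every control cone from P21 on, against a median of 0.634 CPM in rods. A pair of cells went against its cone label by a limit set after the values were seen, a marker sum under 5% of the group's median. Superior control cell 04 of P2 summed to 4.68 CPM and held 981 CPM of Pax6, an amacrine marker. Superior knockout cell 35 summed to 54.4 CPM and held 1119 CPM of Tfap2b, another amacrine marker. Results that these cells touch are given with and without them. Rod markers did not enter this limit, and cells high in them were kept. Their sum reached 42450 CPM in an inferior cone of P60 (group median 830) and 22133 CPM in an inferior cone of P21 (770). The lowest rod had 59677 CPM.

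Opn1sw differed widely from cell to cell in superior cones and little in inferior cones of P21 and P60. Values are in CPM, read counts scaled to the size of the library. In superior control cones of P2 the lowest, median and highest cell held 21.7, 2932 and 21051 CPM. These values were 1015, 7089 and 29946 CPM at P8 and 74.0, 464 and 79328 CPM at P21. At P60 they held 124.9, 1069 and 41767 CPM and in 2m cells 44.3, 9991 and 65875 CPM. In inferior control cones of P2 the lowest, median and highest cell held 227, 4027 and 13621 CPM. Those of P8 held 4693, 28972 and 56350 CPM and those of P21 37189, 80875 and 125682 CPM. Those of P60 held 50256, 75335 and 98171 CPM and those of 2m 7466, 54654 and 108624 CPM. Superior and inferior cells overlapped widely at P2, where 19 of 26 superior cells lay in the inferior range, and at P8, with 17 of 24. At P21 1 of 24 did and at P60 0 of 26. At 2m, 29 of 53 superior cells lay in the inferior range again, so the separation of zones differed between the P60 and 2m collections of nearly one age and the same genotype.

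**Figure D1:**
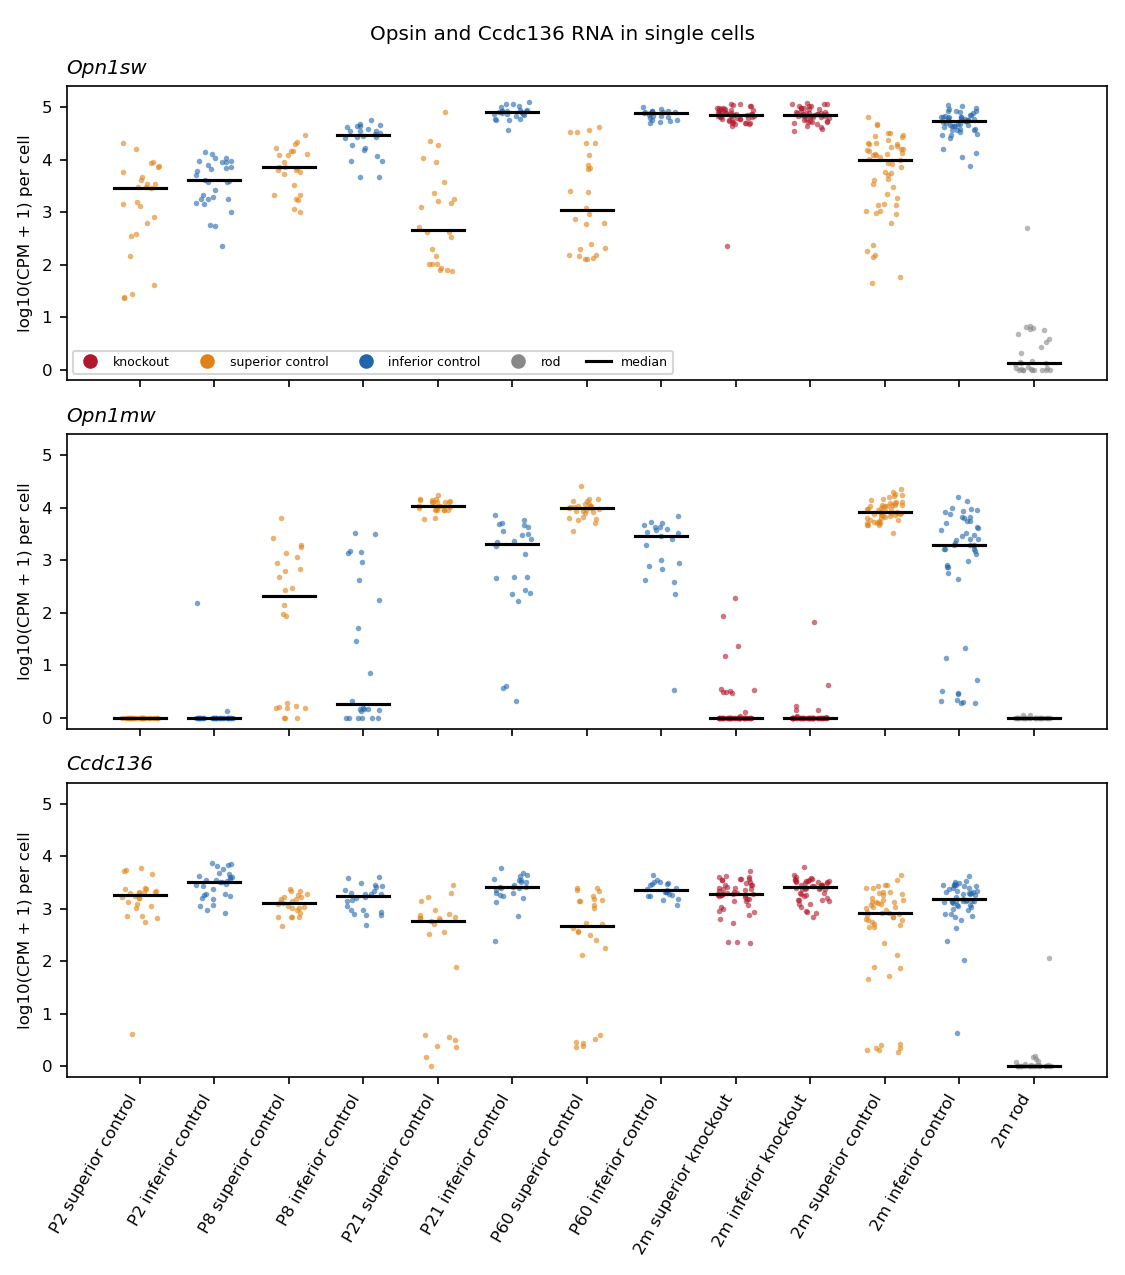
Level of Opn1sw, Opn1mw and Ccdc136 in each cell, as log10(CPM + 1), with 1 point per cell, a black line at the group's median and groups along the x axis. Opn1sw spreads over orders of magnitude in superior control cones, Opn1mw is at or near 0 at P2 and in the knockout, and Ccdc136 has a separate set of cells under 10 CPM in superior control cones from P21 on.

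All 400 cells labelled as cones held at least 10 CPM of Opn1sw, including every superior cone of P21 to 2m. Rods gave the background measured the same way: their median was 0.316 CPM, 8 of 29 were at 0, and 1 of 29 (3.45%, exact Clopper-Pearson 95% interval 0.0873 to 17.8) reached 10 CPM, at 492 CPM. The lowest superior cone of P21, P60 or 2m stood above every rod but that 1. The cells without cone markers also passed 10 CPM, P2 superior cell 04 with 26.9 CPM and superior knockout cell 35 with 225 CPM. The lowest superior control cones of P21, P60 and 2m, at 74.0, 124.9 and 44.3 CPM, held less than cell 35. What such low levels stand for was not tested.

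The coefficient of variation (SD over mean) of Opn1sw over cells put a number on this spread. In superior control cones it was 1.25 at P2, 0.808 at P8, 2.58 at P21, 1.51 at P60 and 1.08 at 2m. In inferior control cones it was 0.754 at P2, 0.513 at P8, 0.254 at P21, 0.190 at P60 and 0.428 at 2m. Among genes averaging 1000 CPM or more in the group (56 to 88 genes in the control groups), Opn1sw had the highest coefficient in superior cones of P2, P21, P60 and 2m, while in inferior cones of P21 and P60 95.1% and 97.6% of such genes varied more. At 2m, inferior, 76.0% varied more. By the SD of log2 values instead, 6.25% of abundant genes varied more than Opn1sw in 2m superior cones. Without cell 04 the P2 superior coefficient was 1.21.

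**Figure D2:**
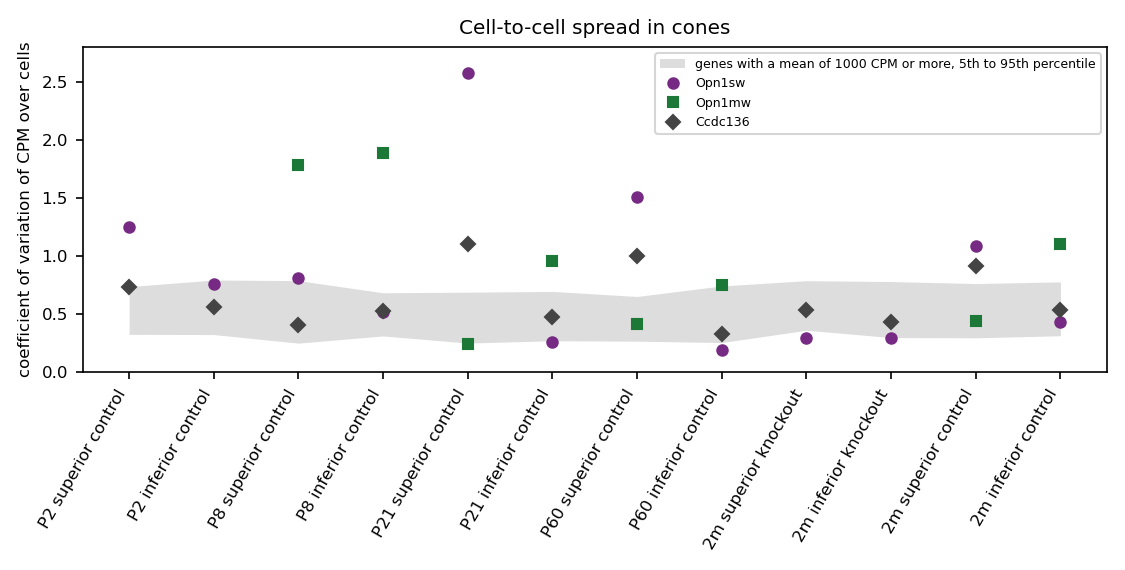
Coefficient of variation of CPM over cells (y axis) in each cone group (x axis) for the 3 genes where their group mean was at least 100 CPM, with the 5th to 95th percentile of genes of at least 1000 CPM in grey. Opn1sw lies above the grey band in superior control cones and at or under its lower edge in knockout cones. Opn1mw lies above the band in inferior control cones and also in superior ones of P8. Ccdc136 lies above it in superior control cones of P21, P60 and 2m.

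Together the opsins made up a large share of the RNA read from a cone. The mean summed share of the library was 7.17% in superior and 7.37% in inferior knockout cones, against 2.23% in superior and 5.75% in inferior 2m control cones. The highest cell, an inferior one of P21, gave 12.9% of its reads to opsins. Per-length levels of Opn1sw and Opn1mw could not be set side by side, since transcript lengths were not used here.

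M opsin RNA was nearly absent at P2 and was found in some P8 cones and not in others. Opn1mw was at 0 in all 26 superior cells of P2, which allows a share of up to 13.2% of cells (exact upper bound), and 1 of 30 inferior cells reached 10 CPM, at 153 CPM. At P8, 15 of 24 superior cells (62.5%, interval 40.6 to 81.2) and 10 of 24 inferior cells (41.7%, 22.1 to 63.4) held at least 10 CPM. The mean of P8 superior cells, 796 CPM, was at least 23272-fold higher than 3 reads over the whole P2 superior group would give, and that of P8 inferior cells was 521 CPM, against 5.12 CPM at P2. Superior cells of P8 fell into those with M opsin and those without: under 10 CPM the highest was 0.952 CPM, and the next cell held 85.4 CPM. Inferior cells had no such gap, with values running through 1.12, 6.32, 27.8, 49.8 and 172 CPM. Between 10 and 100 CPM lay 2 cells in each zone, and 13 superior and 8 inferior cells had more.

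From P21 on, every superior control cone held M opsin at a high level and inferior cones differed among themselves. In superior control cones the lowest, median and highest cell held 6201, 10902 and 17508 CPM at P21, 3653, 9954 and 25613 CPM at P60 and 3269, 8277 and 22522 CPM at 2m. In inferior control cones they held 1.11, 2082 and 7268 CPM at P21, 2.38, 2924 and 6938 CPM at P60 and 0.916, 1992 and 15834 CPM at 2m. At P21, 2 of 24 superior cells lay in the inferior range, and at P60 6 of 26 did. At 2m 47 of 53 superior cells lay in the inferior range, which reached up to 15834 CPM there. Cells under 10 CPM numbered 3 of 24 at P21, 1 of 21 at P60 and 9 of 50 at 2m, all inferior, and none of them was at 0. In those cells Opn1sw was 78585 to 85629 CPM at P21, 55420 CPM at P60 and 36953 to 83957 CPM at 2m, inside the range of the other inferior cones. The low cells of 2m were cells 26, 27, 31, 32, 33, 39, 40, 43 and 44, all in the later part of the numbering. Whether this order marks a batch was not tested. The coefficient of variation of Opn1mw at P21, P60 and 2m was 0.243, 0.416 and 0.443 in superior cones, against 0.954, 0.749 and 1.10 in inferior ones, the opposite order of zones to Opn1sw.

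Opn1mw was the 1 gene of the 3 to meet the rule for a change with age, a mean at least 4-fold higher in both zones. It met it for P8 over P2, as 1.91% of 8836 genes did, and for P21 over P8, with log2 ratios of 3.84 superior and 2.13 inferior, as 1.18% of 8373 genes did. Opn1sw changed unequally by zone, with log2 ratios of 1.18 superior and 2.44 inferior for P8 over P2 and -0.52 superior and 1.51 inferior for P21 over P8. P60 over P21 gave 0.46 superior and -0.17 inferior for Opn1sw and -0.16 and 0.25 for Opn1mw. These compare 1 collection with 1 collection and have no replicate check.

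Ccdc136 was present in cones from P2, lower in superior than in inferior control cones at each age, and under 10 CPM in a minority of superior cones from P21 on. In superior control cones of P2 the lowest, median and highest cell had 3.12, 1864 and 5886 CPM, where cell 04 is the lowest and 564 CPM the next. These were 477, 1266 and 2377 CPM at P8 and 0, 589 and 2797 CPM at P21. They had 1.34, 475 and 2536 CPM at P60 and 0.890, 840 and 4410 CPM at 2m. Inferior control cones of P2 had 832, 3292 and 7398 CPM, those of P8 498, 1793 and 3974 CPM, and those of P21 246, 2576 and 6114 CPM. At P60 these were 1170, 2322 and 4452 CPM and at 2m 3.31, 1516 and 4170 CPM. The zones overlapped at each age.

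Superior control cones under 10 CPM of Ccdc136 numbered 7 of 24 at P21 (29.2%, interval 12.6 to 51.1), 6 of 26 at P60 (23.1%, 8.97 to 43.7) and 7 of 53 at 2m (13.2%, 5.48 to 25.3). The inferior counts were 0 of 24, 0 of 21 and 1 of 50. At P8 no cone of either zone was under 10 CPM. The low cells lay well apart from the others: they had at most 3.04 CPM at P21, 2.91 CPM at P60 and 1.65 CPM at 2m, and the next superior cells had 76.4, 133 and 45.5 CPM. Opn1sw in the low cells had a median of 100.4 CPM (74.0 to 2317) at P21 and 149 CPM (125 to 630) at P60, and 1432 CPM (56.6 to 20853) at 2m. At P60 the cells under 10 CPM of Ccdc136 thus also had little Opn1sw for their group. Most of those at P21 did too. Cells 09 and 20 there, at 508 and 2317 CPM, lay above the group's median of 464 CPM. At 2m the low cells covered a wider range of Opn1sw. The low cells of P60 were cells 21, 23, 24, 25, 26 and 27, late in the numbering. Those of 2m were cells 10, 30, 35, 36, 38, 40 and 45. The labels do not say whether cell numbers follow batches within a collection, and this was not tested. In rods Ccdc136 reached 10 CPM in 1 of 29 cells, at 115 CPM, and was at 0 in 17.

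All 3 genes met the 4-fold rule for 2m control cones over rods in both zones, as 27.9% of 7965 genes did. Log2 ratios were 9.35 superior and 11.45 inferior for Opn1sw, 13.22 and 11.72 for Opn1mw, and 7.77 and 8.44 for Ccdc136.

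The zone difference, superior minus inferior on log2(mean CPM + 1), was most negative at P21 for both Opn1sw and Ccdc136. For Opn1sw it was -0.37 at P2, -1.62 at P8, -3.65 at P21, -3.02 at P60 and -2.09 at 2m. For Ccdc136 it was -0.69, -0.48, -2.09, -1.51 and -0.67 in the same order of ages. For Opn1mw it was 0.61 at P8, 2.32 at P21, 1.90 at P60 and 1.49 at 2m, and the P2 value of -2.61 rests on 1 inferior cell. The means over the 5 collections were -2.15 for Opn1sw, -1.09 for Ccdc136 and 0.74 for Opn1mw. Their SDs over the 5 collections were 1.27, 0.68 and 1.98 in that order. The SEs of the limma fit given below, which borrows variance from all genes, were 0.39, 0.22 and 0.60. The mean of Opn1mw was not stable: it was 1.58 without P2, 0.35 without P21 and 0.45 without P60, and 0.12 with a pseudocount of 0.1, 2.40 with averaged logs and 2.60 with medians over cells. Opn1sw and Ccdc136 were lower in superior cones in 5 of 5 collections, as were 2.4% of the 10136 genes tested, and since this contrast selected them nothing is read from that count. The 3 genes have no test here, and a limma fit of the 10 control groups called 0% of the 10136 genes tested after Benjamini-Hochberg adjustment (threshold 0.05), while 710 genes had an unadjusted p under that threshold. On recovered reads edgeR called 0 genes and DESeq2 128 higher and 108 lower in superior cones.

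In knockout cones M opsin was almost absent, S opsin was high in both zones, and no cone was under 10 CPM of Ccdc136. Thrb, the targeted gene, had log2 ratios of knockout over 2m control of -2.28 superior and -2.29 inferior. Its values cover the whole gene, so the altered part was not checked. Opn1mw was at 0 in 38 of 50 superior and 40 of 48 inferior knockout cells, with highest cells of 194 and 65.7 CPM. At least 10 CPM was reached by 4 of 50 superior (8.00%, interval 2.22 to 19.2) and 1 of 48 inferior knockout cells (2.08%, 0.0527 to 11.1), against 53 of 53 superior and 41 of 50 inferior 2m control cells. Superior knockout and control cells did not overlap, whereas 11 of 50 inferior control cells lay at or under the highest inferior knockout cell. The log2 ratios of means were -10.30 superior and -10.43 inferior, and 3.5% of 8199 genes were at least 2-fold lower in both zones. The few knockout cells with M opsin carry these means: 1 superior cell was above 100 CPM.

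Opn1sw had a lowest, median and highest cell of 225, 70182 and 113657 CPM in superior knockout cones, against 44.3, 9991 and 65875 CPM in superior 2m controls. Without cell 35 the lowest superior knockout cell held 42658 CPM, and 3 of 53 superior control cells reached that level. In inferior cones these were 34474, 70730 and 119963 CPM in the knockout, where 2m controls had 7466, 54654 and 108624 CPM, and 44 of 48 knockout cells lay in the control range. The log2 ratio of knockout over 2m control was 2.50 superior and 0.45 inferior, where P60 over 2m controls differed by -0.51 and 0.42. The inferior ratio was thus about as large as the difference between control collections. The coefficient of variation in superior cones was 0.293 in the knockout, against 1.08 in 2m controls, and the zone difference was -0.04 in the knockout, against -2.09 in 2m controls. Without cell 35 these knockout values were 0.252 and -0.01.

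Ccdc136 had a lowest, median and highest cell of 225, 1944 and 5266 CPM in superior knockout cones, against 0.890, 840 and 4410 CPM in superior 2m controls. The inferior knockout values were 703, 2590 and 6327 CPM, where inferior 2m controls had 3.31, 1516 and 4170 CPM. Cells under 10 CPM numbered 0 of 50 superior (0% to 7.11%) and 0 of 48 inferior (0% to 7.40%) in the knockout, against 7 of 53 superior and 1 of 50 inferior in 2m controls. Most superior knockout cells (49 of 50) still lay inside the range of superior controls. Log2 ratios were 0.97 superior and 0.54 inferior against 2m controls, and 1.33 and 0.07 against P60 controls, where P60 over 2m controls gave -0.36 and 0.48. Neither Opn1sw nor Ccdc136 met the rule of 2-fold higher in both zones, which 4.28% of 8199 genes met.

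Within superior cones of P21, P60 and 2m, cells with more Opn1sw had more Ccdc136. Spearman's correlation between them over cells was 0.67 (n = 24) at P21, 0.85 (n = 26) at P60 and 0.52 (n = 53) at 2m in superior control cones, against -0.33 (n = 24), 0.25 (n = 21) and 0.19 (n = 50) in inferior ones. At P2 it was 0.42 superior (0.37 without cell 04) and 0.37 inferior, and at P8 0.23 and 0.46. Over 13 groups it was positive in 11, with a median of 0.37. The cells of a group share a collection, a depth range and the scaling to library reads. With Opn1sw and Opn1mw, but not Ccdc136, left out of that scaling, the correlation in the superior groups was 0.68, 0.85 and 0.52. With reads thinned to 800000 per cell it was 0.68, 0.85 and 0.50. The correlation of either gene with reads per cell in those 3 groups lay between -0.20 and 0.21. With genes above 0 per cell it was -0.39, -0.17 and -0.08 for Opn1sw and -0.37, -0.26 and 0.07 for Ccdc136 at P21, P60 and 2m, and the part of this in their correlation was not tested.

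**Figure D3:**
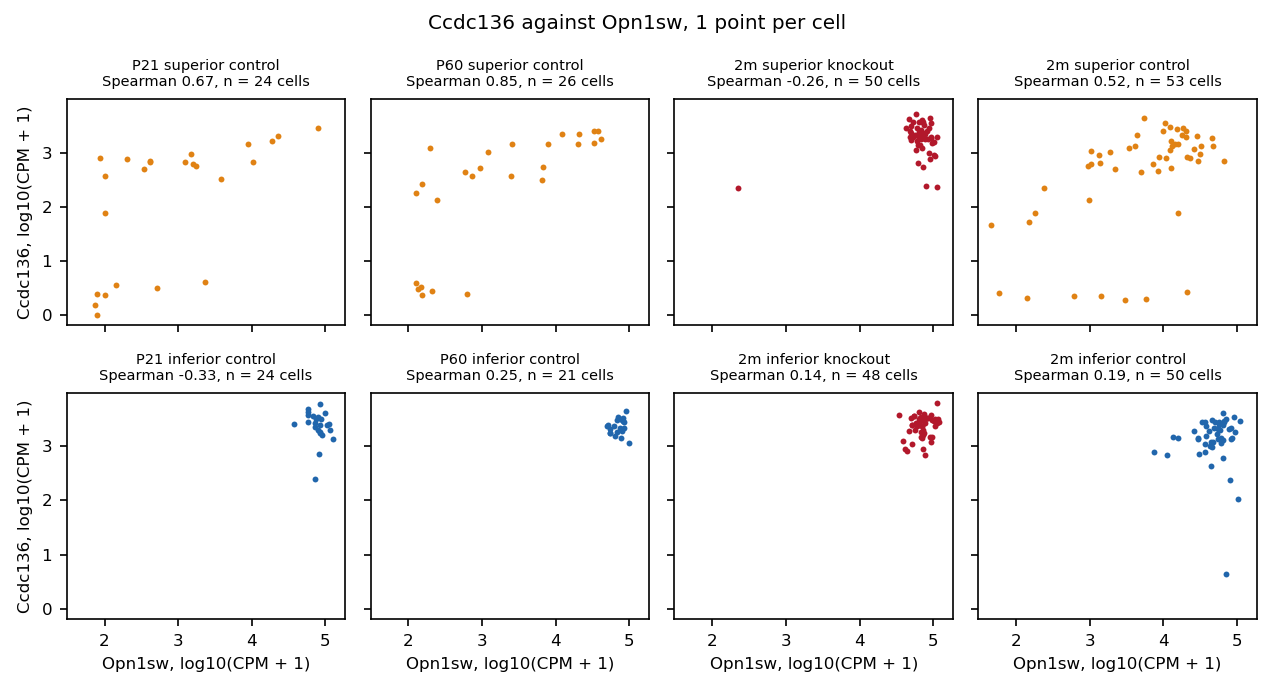
Ccdc136 (y axis) against Opn1sw (x axis) in each cell, both as log10(CPM + 1), in superior (top row) and inferior (bottom row) cones, with Spearman's correlation and the number of cells above each panel. Superior control cones spread along both axes with correlations of 0.52 to 0.85, while inferior and knockout cones crowd at high Opn1sw, apart from superior knockout cell 35 at the left.

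In knockout cones the correlation was lower than in superior controls, at -0.26 superior (n = 50) and 0.14 inferior (n = 48). Pearson's r on log2(CPM + 1) in the superior group was 0.30 with all cells and -0.36 without cell 35, so its sign rested on that cell. Knockout cones (cell 35 apart), like inferior control cones, covered a narrower range of Opn1sw than superior controls, and whether the narrow range accounts for the lower correlation was not tested. In rods it was 0.60 but 0.17 after thinning, with most values at or near single reads.

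Set against all genes averaging 10 CPM or more in each adult group, Ccdc136 ranked at the top for likeness to Opn1sw in superior cones. Of 5631 genes compared it was number 2 at P21 (after Tceb2, 0.69), number 1 at P60 (next Adrm1, 0.60) and number 1 at 2m (next Clca1, 0.48) by Spearman's correlation. In inferior cones of the same ages it was number 5185, 670 and 416. By Pearson's r on log2 values it was number 8, 1 and 1 in superior cones, and after thinning number 1 in each. Looked at from the other side, Opn1sw was number 1 for Ccdc136 in all 3 superior groups. The ranks are descriptions of cells from 1 collection each, and the genes compared were not matched for level. In the inferior groups the gene highest for Opn1sw reached 0.74 at P21 (Etfa), 0.75 at P60 (Arxes2) and 0.67 at 2m (Ubb) by Spearman's correlation. At P60 the superior cells low in both Opn1sw and Ccdc136 stood late in the numbering, and the part of this in the ranks was not tested.

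**Figure D4:**
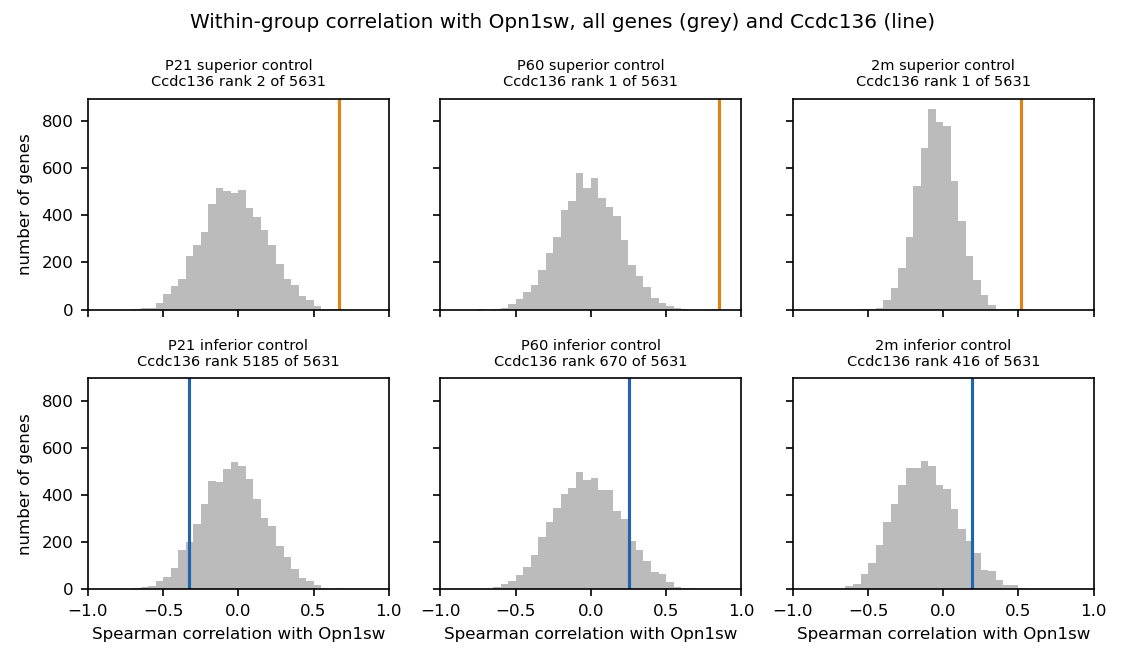
Number of genes (y axis) at each Spearman correlation with Opn1sw over cells (x axis, bins of 0.05) in 6 control groups, with a line at Ccdc136. The line lies at the right edge of the grey distribution in the 3 superior groups (0.67, 0.85 and 0.52) and inside it in the 3 inferior groups.

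The opsins themselves showed no shared direction across groups. Spearman's correlation between Opn1sw and Opn1mw was 0.38 superior and -0.14 inferior at P8, 0.49 and -0.08 at P21, -0.09 and 0.04 at P60, and -0.07 and -0.54 at 2m, with a median of -0.08 over 9 groups. The 2m inferior value was the most negative: Opn1mw ranked 5588 of 5631 genes for likeness to Opn1sw there. In those 50 cells Opn1sw also had a correlation of 0.50 with reads per cell and -0.53 with genes above 0, and Opn1mw -0.22 and 0.36. After thinning, the correlation between the opsins was -0.54, and the part of genes detected in it was not tested. The cells of this group under 10 CPM of Opn1mw stood late in the numbering, and the part of that was not tested either. Between Opn1mw and Ccdc136 the median correlation was -0.10 over 9 groups, from -0.40 in P8 inferior to 0.25 in P21 superior cones.

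By the median correlation over the 6 adult control groups, the genes most like Opn1sw after Ccdc136 (0.38) were A730017L22Rik (0.31), Wdr11 (0.30), Psmd11 (0.28) and Fbxo11 (0.28), and Dgkd was lowest (-0.39). For Opn1mw these were E130218H05 (0.43), Gm4827 (0.38), Ndufa12 (0.38), Hopx (0.37) and Rps6 (0.36), with Clstn1 lowest (-0.39). For Ccdc136 they were Opn1sw (0.38), Kctd21 (0.31), Hadha (0.31), Zfp322a (0.29) and Egln1 (0.28), with Pgp lowest (-0.43). Medians this small, with signs that differ between groups for most of these genes, describe weak likeness only. Of these, Hopx, E130218H05 and Ndufa12 kept a positive correlation with Opn1mw in each of the 6 groups.

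Over the 13 group means, on log2(mean CPM + 1), the likeness was of another kind, since age, genotype and cell type all enter. Opn1mw was most like Obfc1 (Pearson r 0.99), Hopx (0.98), E130218H05 (0.97), Agr2 (0.95) and Gabrr3 (0.93). Opn1sw was most like Mir124-2hg (0.96), Ankrd37 (0.95), Tbcb (0.94), Gnb3 (0.94) and C530020B09Rik (0.94), and Ccdc136 most like Pgs1 (0.98), Myo9a (0.98), Dnah17 (0.98), Gpaa1 (0.98) and Rxrg (0.97). Opn1sw and Ccdc136 had r of 0.89, number 57 of 10356 genes for Opn1sw and number 481 for Ccdc136. Gnb3 is the cone transducin beta subunit and Rxrg the retinoid X receptor of cones. Hopx and E130218H05 were like Opn1mw both between and within groups.

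Known regulators of opsin choice and photoreceptor fate were looked at beside the opsins. Of 22 regulators listed, 16 were measured, and limma called 0 of 16 by zone (5 at an unadjusted p below 0.05), edgeR 0 and DESeq2 4 (Nr2f2, Vax2, Samd7 and Samd11). Thrb, the nuclear receptor Nr2f2, the photoreceptor repressor Samd7 and Casz1 were higher in superior cones in 5 of 5 collections, with mean differences of 0.54, 3.22, 3.59 and 0.52, where 4.96% of the 10136 genes tested (503) were higher in 5 of 5. Vax2, a ventral homeodomain factor, and Samd11 were lower in 5 of 5, at -5.33 and -1.48, where 243 of all genes were. In the knockout, Otx2 was at least 2-fold higher in both zones (log2 ratio 1.19 superior, 1.03 inferior) and Thrb at least 2-fold lower. The median zone difference was 0.06 over the 16, against 0.10 over all genes, and the median knockout ratio -0.02, against 0.06.

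Of 22 genes of cone phototransduction, the cascade that opsins start, 19 were measured. Limma called 0 of 19 by zone (6 at an unadjusted p below 0.05), edgeR 0 and DESeq2 3 (Pde6c, Grk1 and Pdc). Phosducin (Pdc), which binds transducin, was higher in superior cones in 5 of 5 collections (mean 0.40), and Gnb3 (-0.25), the opsin kinase Grk1 (-0.43) and the cyclase activator Guca1b (-1.25) were lower in 5 of 5. The share higher in 5 of 5, 1 of 19, was near the 4.96% of all genes, and 3 of 19 stand beside 2.4% lower. In the knockout Guca1b was higher by log2 ratios of 2.15 superior and 3.16 inferior, and cone arrestin Arr3 was lower, with log2 ratios of -1.07 and -1.62. The median zone difference of the 19 was 0.04 and their median knockout ratio 0.07. The transducin alpha subunit Gnat2, for one, differed by zone by 0.08, where Opn1sw differed by -2.15.

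Other measured genes near the opsins were set beside them. Within 250 kb of Opn1sw, 7 of 18 annotated genes were measured. Ccdc136 was lower in superior cones in 5 of 5 collections and Rbm28 higher in 5 of 5 (mean 0.84), and apart from Ccdc136 limma called 0 of 6, with 0 at an unadjusted p below 0.05 and 0 by edgeR or DESeq2. No gene of the 7 was 2-fold higher or lower in the knockout in both zones. Calu, whose interval shares 5 bases with that of Opn1sw, and Flnc were not analysed here. Within 250 kb of Opn1mw, 20 of 36 genes were measured, and limma called 0 of 20 (4 at an unadjusted p below 0.05), edgeR 0 and DESeq2 2 (Plxna3 and Fam3a). Flna, which encodes filamin, was at least 2-fold higher in the knockout in both zones (log2 4.72 superior, 2.48 inferior), opposite to Opn1mw. It was 1 of the 20, where 4.28% of 8199 genes met this rule. Its 2m control means were low, at 0.875 CPM superior and 6.07 CPM inferior. Over P60 controls the ratios were 1.62 and 1.93. The pseudogene Gm6758 is annotated inside the Opn1mw interval, and how reads there were shared is not given in the sources used here.

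The chromatin lists held regions at both opsin genes, of opposite kinds. The lists have 4590 ChAP regions of 300 bases and 5049 "induced" and 4072 "suppressed" ATAC regions; the sources used here do not state what change the names stand for, so they are used as names. Within 100 kb of Opn1sw lay 4 ChAP, 4 induced and 10 suppressed regions, and within 100 kb of Opn1mw 0 ChAP, 7 induced and 1 suppressed region. Of 49554 annotated genes, 33.7% had a ChAP region within 100 kb, 32.4% an induced and 17.9% a suppressed region. As many as 10 suppressed regions lay near 0.0666% of genes (33 genes, with Ccdc136 among them), and 7 or more induced regions near 0.981%. Other genes close by, Calu and Flnc among them, lie within 100 kb of the same 10 regions, so the 33 genes are not separate cases. Longer genes and gene-dense stretches reach more regions, and the shares make no allowance for that.

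All 10 suppressed regions near Opn1sw fell in 1 stretch, between chr6:29372318 and 29428104, that spans Opn1sw and Ccdc136. The same 10 count as near Ccdc136. Inside Calu lay 3 of them, 2215 bases or more from Opn1sw; 2 overlapped Opn1sw itself, at chr6:29378831-29379219 and chr6:29379399-29380817, the larger at 1419 bases. One between the genes, at chr6:29388054-29389060, covers a tRNA gene, 3 lay inside Ccdc136 and 1 lay 440 bases past it. No induced region lay in that stretch: the nearest ended at chr6:29365811, inside Calu, and the next on the other side began at chr6:29527541, inside Irf5.

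A ChAP region at chr6:29380490-29380789 covered, without regard to strand, the 24 bases at the upper end of the Opn1sw interval and overlapped the larger suppressed region. Its deposited p-value of 1.2e-19 was number 56 of the 4590 in the authors' list. Another ChAP region, at chr6:29394394-29394693, lay 1881 bases before the Ccdc136 interval (p 3.63e-11, number 309) and overlapped no ATAC region of either list. The third, at chr6:29365410-29365709 inside Calu (p 1.38e-07, number 657), and the fourth, 99735 bases from Opn1sw (p 8.95e-13, number 216), overlapped induced regions. Over the whole list 28.2% of ChAP regions overlapped an induced and 2.31% a suppressed region, so the region at Opn1sw was 1 of 106 of the less common kind. ChAP was made from E18 retina of both zones and all cell types, before any of the cones picked here.

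**Figure D5:**
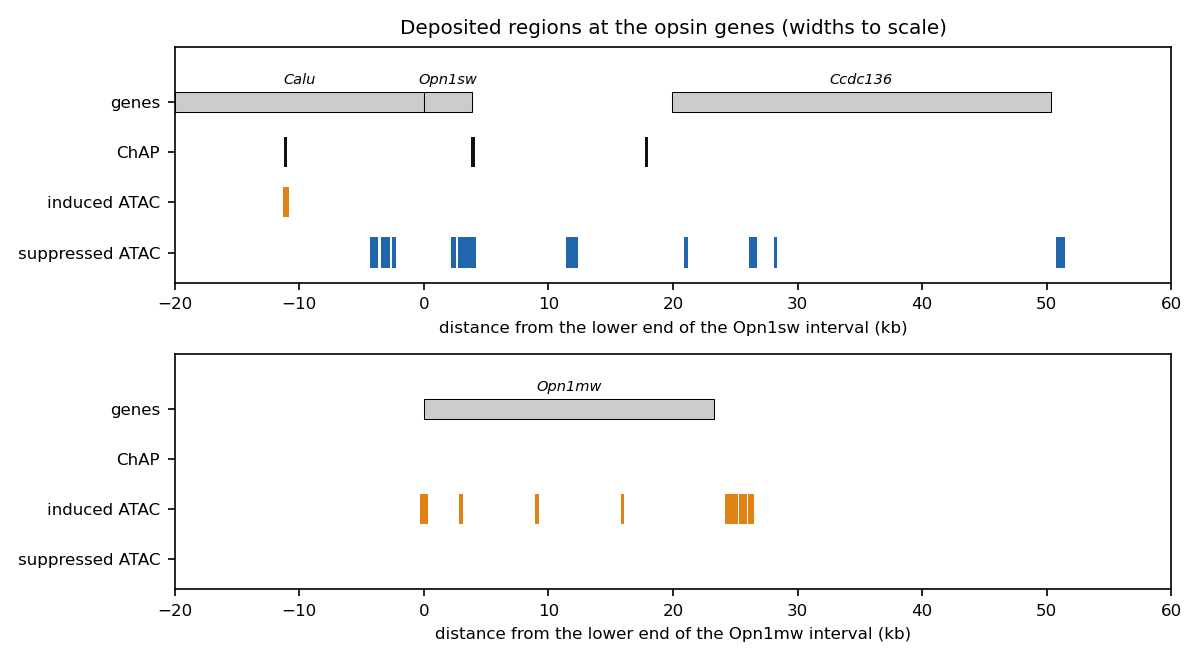
Deposited regions at Opn1sw and Ccdc136 (top) and at Opn1mw (bottom), by distance in kb from the lower end of the opsin interval (x axis), with gene intervals in grey and 1 row per list (y axis). Suppressed regions flank and overlap Opn1sw and Ccdc136, and induced regions lie in and just past Opn1mw, where no ChAP region is listed.

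At Opn1mw the listed regions were induced ones. One covered the lower end of the interval, at chrX:74127180-74127813, with 348 bases inside it, and 3 more lay within the gene. The other 3 lay in Tex28, at 920, 2007 and 2729 bases past the upper end. The single suppressed region within 100 kb lay 93827 bases away, in Flna. The nearest ChAP region, in Fam50a, lay 162057 bases away (p 0.00814, number 3163). The lists come from whole groups of nuclei, so they cannot be set against Opn1sw or Ccdc136 in single cells.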

How the data were processed

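The table of 10390 genes and 430 libraries was deposited by the authors in CPM, scaled to the whole library; the genes in it held 80.0% to 93.0% of each library. Per the submitters' processing notes, STAR 2.7.3a and MACS2 2.2.7.1 were used with GRCm38 (mm10). Neither the counting tool, its strand setting nor the annotation is given in the labels. Whole reads were recovered: 100% of values were whole within 0.1 reads, although for 5 libraries the step lies near a power of 10, where rounding of the values alone could give this. The ChAP list was deposited with a p-value column, of a kind not stated; it ranked regions only.

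Libraries 03 and 14 of P60 superior controls (r 0.996 across genes, the next pair 0.467) were merged as 1 cell, leaving 429. They differed by more than counting error (chi-square per degree of freedom 1.91 over 3633 genes, where pairs of adjacent libraries in the group gave 156 or more), so they were taken as 1 cell sequenced again. No animal is named, and any spread between collections may be technical.

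A group's value was its mean CPM over cells, compared as log2(mean CPM + 1). Genes of at least 5 CPM were fitted with limma 3.58.1 (zone, with collection as a block, 10 groups), Benjamini-Hochberg adjusted over 10136 genes at 0.05. Summed recovered reads were tested with edgeR 4.0.16 and DESeq2 1.42.0, and the code was tested on simulated data. Size rules (2-fold or 4-fold in both zones, and at least 10 CPM in the higher group) stood in for tests with 1 collection a side. Correlations needed 10 cells above 0 for both genes. Intervals are exact Clopper-Pearson at 95% on numbers of cells, taken as independent draws, and do not cover spread between animals. Reads have no molecular identifiers. Gene intervals are those of RefSeq GRCm38.p6 (10149 genes matched); the build has no sequence in the sources used here, so the planned motif search was not run. Positions count from 1. The named genes are the 3 genes, the regulator and phototransduction lists, genes within 250 kb, and the 5 most and 3 least alike; members, lists and rules were chosen with earlier results of these data known.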

Additional observations from a re-analysis of the deposited data

How the results depend on the processing

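Averaging log values over cells moved the zone difference of Opn1sw to -3.73 and of Ccdc136 to -2.15, and medians over cells gave -3.70 for Opn1sw. For Opn1mw, whose main value was 0.74, averaged logs gave 2.40, medians 2.60, pseudocounts of 0.1 and 10 gave 0.12 and 1.14, and leaving out each collection gave 0.35 to 1.58. The knockout ratios of superior cones became 3.65 for Opn1sw, -12.44 for Opn1mw and 2.19 for Ccdc136 with averaged logs, and -9.22 for Opn1mw in inferior cones. Against P60 controls they were 3.01, -10.39 and 1.33 superior and 0.032, -10.11 and 0.068 inferior for Opn1sw, Opn1mw and Ccdc136. For Opn1mw, pseudocounts of 0.1 and 10 gave -10.48 and -9.18 superior and -11.08 and -8.22 inferior. The cause of these shifts was not tested beyond the change of setting, and all kept their sign. By zone, limma on averaged logs called 10 genes higher and 6 lower in superior cones (847 at an unadjusted p below 0.05), and DESeq2 128 and 108; leaving out each collection in turn, another pseudocount, no filter, edgeR or leaving out both cells without cone markers called 0. Induced regions near Opn1sw numbered 1 within 50 kb and 8 within 250 kb. Near Opn1mw, ChAP regions numbered 1 within 250 kb and suppressed regions 0 within 50 kb. No paired analysis was possible because cell numbers only name single cells, which are not pairs across groups; collection was already the block. Single reads limit statements on Opn1mw in the knockout and at P2.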
